A study of Mus musculus with 6 samples.

Results

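The genes described here are 36 mouse genes of the protein-folding machinery: the heat-shock chaperones of the cytosol and the mitochondrion with their main partners, the chaperonin CCT and the co-chaperone prefoldin. They were picked by gene symbol from the 24594 rows of a count table, and each of the 36 has 1 row. The table comes from mouse small-intestinal organoids, cultured epithelial structures with crypt-like and villus-like regions. All organoids were raised from single cells for 96 h. For the next 24 h 1 group of 3 libraries was given 5 uM NIBR-LTSi, known as an inhibitor of the Hippo kinases LATS1 and LATS2, and the other group of 3 libraries an equal volume of the solvent DMSO. No source used here gives the mouse strain, the genotype, the number of organoid lines or the origin of the replicates. The p-values measure the spread among these 6 libraries, and it may be technical in part.

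Chaperones bind proteins that are not yet folded or have come unfolded. HSP70 proteins grip short exposed stretches of a client, J-domain proteins bring clients to HSP70 and start its ATP cycle, and HSP110 proteins help it to release ADP. HSP90 acts later, with a set of co-chaperones, on kinases, steroid receptors and other signalling proteins. CCT is a ring of 8 related subunits that folds actin and tubulin, and prefoldin hands it these chains as they leave the ribosome. The transcription factor HSF1 activates many of these genes through heat shock elements, repeats of a short GAA or TTC unit in alternating orientation. The intestinal epithelium is renewed continuously from its crypts, so its cells make and fold protein at a steady rate.

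Heat shock elements were looked for in the RefSeq promoters, which run from 250 bases before to 50 bases after each start (GRCm38.p6). The table holds 38 such windows for 29 of the 36 genes. It has none for Hspa8, Hsp90aa1, Hsp90ab1, Hsf1, Cct4, Hspa9 and Pfdn1, which were therefore not searched. Motifs of 2 lengths were searched on both strands: 2 units (GAANNTTC or TTCNNGAA, each its own reverse complement), and 3 alternating units spaced in the same way, which include the shorter form. The 2-unit motif was in 15 of the 38 windows (39.5%), against 15.1% of all 32851 windows. The 3-unit motif was in 5 of the 38 windows (13.2%), against 0.603% of all windows. Those 5 windows belong to Hsph1, Chordc1, Hspd1 and Hspe1, and they are not independent. The Hsph1 windows overlap and hold the same site, and Hspd1 and Hspe1 share the site between their starts. Counted by gene, the 3-unit motif was in 4 of 29 (13.8%), against 0.662% of all 27025 genes with a promoter. A match describes the letters in the window and is not evidence of a bound factor.

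The stretches below are shown because they carry these motifs beside genes whose levels are described further on. Capitals mark every run of at least 2 alternating units, and each is written 5′ to 3′ on the strand given. The first is the whole interval between the divergent starts of Hspd1 and Hspe1 (chr1:55087933-55088147, plus strand, reading towards Hspe1; Hspd1 has a further RefSeq start inside Hspe1). The next is the 30 bases around the start of Chordc1 (chr9:18292258-18292287, plus strand), followed by 30 bases just after a start of Hsph1 (chr5:149636276-149636305, minus strand). The last pair is the 150 bases before the starts of Hspa1a (chr17:34972157-34972306, minus strand) and Hspa1b (chr17:34959239-34959388, minus strand), which match at 149 of 150 bases.
Hspd1 and Hspe1: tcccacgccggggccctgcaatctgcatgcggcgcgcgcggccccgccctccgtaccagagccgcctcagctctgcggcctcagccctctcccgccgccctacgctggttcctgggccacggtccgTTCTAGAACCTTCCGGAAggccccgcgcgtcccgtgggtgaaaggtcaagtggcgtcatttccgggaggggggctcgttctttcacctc
Chordc1: aaccgGAACGTTCGGGAAAATTCCTGAAgc
Hsph1: gcagaTTCTGGAAAGTTCtcctcagtaggc
Hspa1a: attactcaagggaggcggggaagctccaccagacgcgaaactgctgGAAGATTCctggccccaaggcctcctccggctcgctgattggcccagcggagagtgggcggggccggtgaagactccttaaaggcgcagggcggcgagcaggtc
Hspa1b: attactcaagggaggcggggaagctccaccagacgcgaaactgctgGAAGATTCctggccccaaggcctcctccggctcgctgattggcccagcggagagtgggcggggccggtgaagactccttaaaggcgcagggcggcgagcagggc

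Total counts per library ranged from 18395427 to 26767043. The members took 0.667% to 0.684% of all counts in the DMSO libraries and 0.773% to 0.798% in the NIBR-LTSi libraries. Over the whole table, as many as 12592 genes passed the low-count filter, and 42.0% of them were called in the test used throughout, an edgeR quasi-likelihood test with Benjamini-Hochberg adjusted p under 0.05: 22.8% higher and 19.2% lower with NIBR-LTSi. Levels are in CPM, counts relative to the TMM-scaled library total. The 6 epithelial markers summed to 7727 to 7848 CPM in the DMSO group and 8504 to 9076 CPM in the treated group. They went both ways: Krt8 and Krt19 rose, Vil1 fell, and Epcam, Cdh1 and Cdx2 were not called. The 7 fibroblast markers summed to 6.04 to 8.11 and 4.79 to 5.52 CPM, with only Vim past the filter and with Dcn and Lum at 0. The 7 immune markers summed to 11.7 to 12.3 and 12.3 to 14.4 CPM, with Cd3e at 0, and the 5 endothelial markers to 0.641 to 0.802 and 0.329 to 0.654 CPM, with Cdh5, Kdr and Emcn at 0. In bulk samples such as these, fewer cells of a type and less RNA per cell cannot be told apart.

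With NIBR-LTSi most chaperone genes rose by a small amount. Of the 35 members past the filter, 23 rose, 3 fell and 9 were not called, so that 74.3% were called against the background of 42.0%. All 8 CCT subunits and all 7 genes of the HSP90 group rose, together with 3 of 4 mitochondrial chaperones and 4 of 6 HSP70 and HSP110 genes. None of the J-domain genes among the members (Dnaja1, Dnaja2, Dnajb1 and Dnajb4) was called higher, and prefoldin was split. No member reached a 2-fold change. The median log2 fold change (NIBR-LTSi over DMSO) was 0.19, against 0.02 for all tested genes, with quartiles of -0.16 and 0.22. Taken without sign, the median was 0.20 for the members, 0.19 for all tested genes and 0.35 for all called genes. The typical size of change of the members was thus near that of genes in general, while its direction was mostly upward. In 29 of the 35 genes the libraries of the groups did not overlap (25 higher and 4 lower), which was so for 52.5% of all tested genes. Both background shares include genes with low counts, where a small change is harder to call. The members were not set beside genes of a like level, so the part that their level has in these shares was not tested. Hspb1 was the member below the filter, and the members and lists were chosen with earlier results of these data known.

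**Figure D1:**
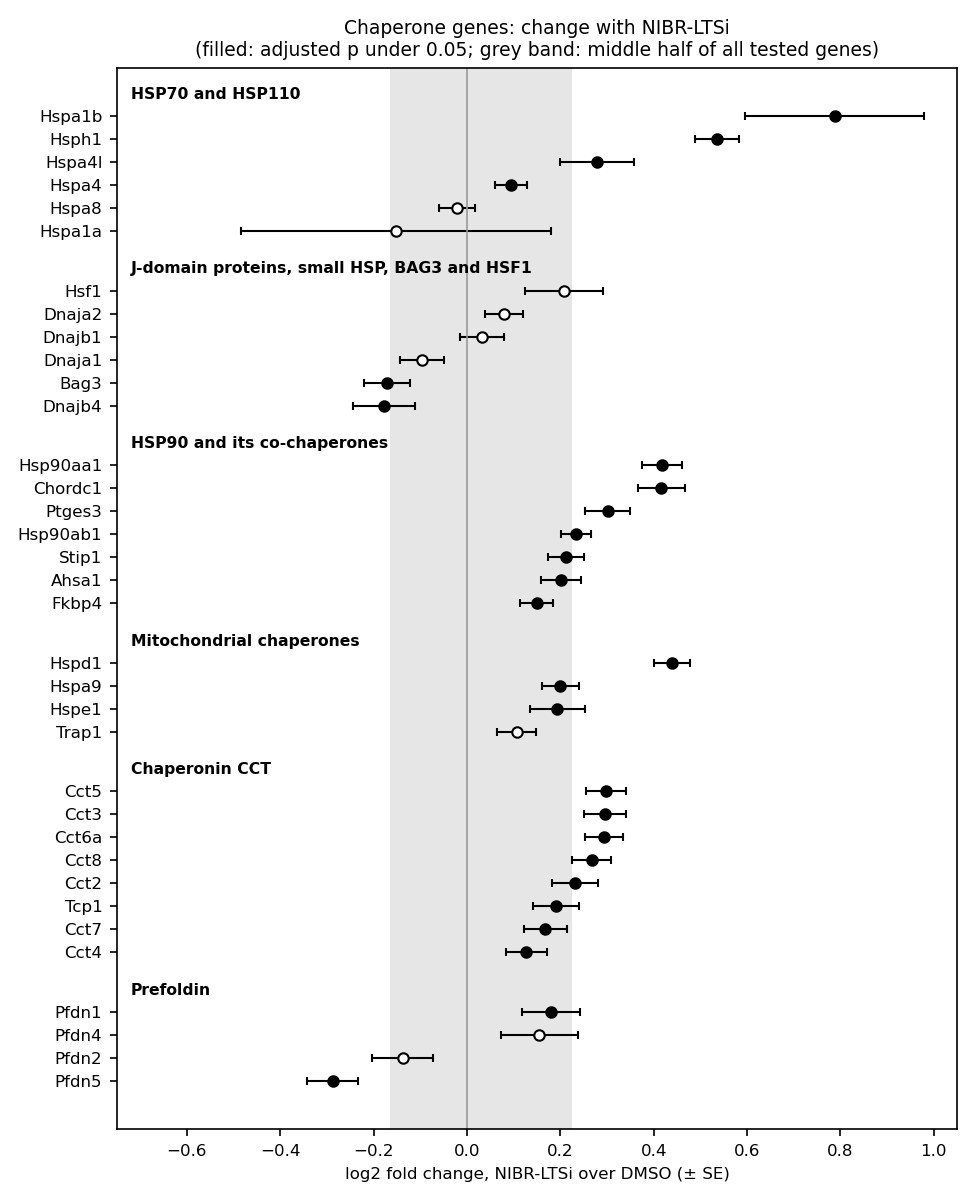
Log2 fold change (x axis, NIBR-LTSi over DMSO, bars ± SE from the edgeR test) of the 35 tested members, grouped by role. Filled points have an adjusted p under 0.05, and the grey band spans the quartiles of all tested genes, -0.16 to 0.22. All points of CCT and HSP90 lie above 0, while prefoldin and the J-domain group lie on both sides.

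The HSP70 and HSP110 group held the largest rises and also its most abundant gene without a called change. Hspa1b (Entrez 15511; chromosome 17, 34956429 to 34959238), a stress-inducible cytosolic HSP70, stood at 2.76, 1.78 and 2.08 CPM in the DMSO libraries and at 3.51, 4.29 and 3.73 CPM with NIBR-LTSi. Every NIBR-LTSi library lay above every DMSO library, at a low level resting on 32 to 105 counts. Its log2 fold change was 0.79 ± 0.19 (SE; 1.73-fold, adjusted p = 0.00594). Its neighbour Hspa1a (Entrez 193740; chromosome 17, 34969359 to 34972156), which encodes nearly the same protein, was at 0.721, 0.4997 and 0.661 CPM with DMSO and at 0.722, 0.572 and 0.438 CPM with NIBR-LTSi. These groups overlap, each value rests on 9 to 18 counts, and the log2 fold change was -0.15 ± 0.33 (adjusted p = 0.749), with a sign that turned without NIBR-LTSi replicate 3.

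The split between these copies is uncertain. In GENCODE transcripts 62.3% of the 50-base windows of Hspa1b also occur in Hspa1a, so the counting could have moved reads between them. Summed into 1 row they stood at 3.48, 2.28 and 2.74 CPM with DMSO and at 4.23, 4.87 and 4.17 CPM with NIBR-LTSi. The sum rose as well, by 0.63 ± 0.17 on the log2 scale (adjusted p = 0.0120).

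Hsph1 (Entrez 15505; chromosome 5, 149616843 to 149636498), a cytosolic HSP110, was at 39.9, 40.8 and 41.4 CPM with DMSO and at 59.4, 58.3 and 59.1 CPM with NIBR-LTSi. The libraries within each group lie close together and far from the other group. The log2 fold change was 0.54 ± 0.05 (1.45-fold, adjusted p = 2.81e-06), the smallest adjusted p of the members, and none of its 50-base windows occur in another gene. Its relatives Hspa4l and Hspa4, further HSP110-type exchange factors, rose less. Hspa4l went from 26.7 ± 2.8 to 32.3 ± 2.1 CPM (SD, n = 3; log2 fold change 0.28 ± 0.08, adjusted p = 0.0144). Hspa4 went from 261 ± 5 to 279 CPM, with an SD of 0.334 in the treated group, and a log2 fold change of 0.09 ± 0.03 (adjusted p = 0.0455). Hspa4l lost its call if either of DMSO replicates 1 and 2, or else NIBR-LTSi replicate 3, was left out (adjusted p up to 0.0820). Hspa4 lost it in 10 of 16 alternatives, 5 of which left out a library, and its adjusted p ranged from 0.00521 to 0.231.

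Hspa8 (Entrez 15481; chromosome 9, 40801276 to 40805202), the constitutive HSP70 of the cytosol, is the highest of the 36 genes per kb of gene width after Hsp90ab1. It was at 1007, 1045 and 1013 CPM with DMSO and at 1043, 1018 and 959 CPM with NIBR-LTSi. The groups overlap, with the highest library in DMSO and the lowest in NIBR-LTSi, and the log2 fold change of -0.02 ± 0.04 was less than its standard error (adjusted p = 0.689). Of its 50-base windows 74.8% occur in other genes, so part of its reads may have been counted elsewhere.

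Among the J-domain proteins and the other HSP70 regulators, changes were smaller and went both ways. Bag3, which links HSP70 to small heat-shock proteins and to autophagy, fell from 73.9 ± 0.9 to 65.5 ± 3.7 CPM (SD, n = 3), by 0.17 ± 0.05 on the log2 scale (adjusted p = 0.0161). The call was lost when DMSO replicate 1 was left out (0.0597) or when counts were scaled by library totals alone (0.0781), within a range of 0.00831 to 0.0781. Dnajb4 (Entrez 67035; chromosome 3, 152181580 to 152210432), a J-domain partner of HSP70, was at 27.8, 32.1 and 30.5 CPM with DMSO and at 26.0, 26.3 and 27.4 CPM with NIBR-LTSi. The lowest DMSO library was just above the highest NIBR-LTSi library. Its log2 fold change of -0.18 ± 0.07 lay at the threshold (adjusted p = 0.0499), and 11 of 16 alternatives lost the call, among them the removal of each library but DMSO replicate 1 (adjusted p up to 0.157).

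Dnajb1, the J-domain protein best known for its induction by heat, stood at 46.0, 46.5 and 46.8 CPM with DMSO and at 47.2, 48.1 and 47.1 CPM with NIBR-LTSi. The treated libraries were all slightly higher, but the log2 fold change of 0.03 ± 0.05 was less than its standard error (adjusted p = 0.612). Dnaja1 was at 73.9 ± 2.3 and 69.1 ± 2.4 CPM (adjusted p = 0.124) and Dnaja2 at 186 ± 5 and 196 ± 7 CPM (adjusted p = 0.146), both farnesylated J-domain proteins of the cytosol. Neither was called.

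Hsf1 (Entrez 15499; chromosome 15, 76477362 to 76501155) was at 26.1, 23.7 and 20.3 CPM with DMSO and at 26.1, 27.6 and 27.4 CPM with NIBR-LTSi. DMSO replicate 1 reached the lowest NIBR-LTSi library. The log2 fold change was 0.21 ± 0.08 (adjusted p = 0.0671), within a range of 0.0203 to 0.229. It was called if DMSO replicate 1 was left out (0.0203) or if only library totals were used for scaling (0.0375). HSF1 activity is set mainly on the protein, which was not measured. Hspb1, a small heat-shock protein that holds unfolded clients, had 1, 0 and 0 counts with DMSO and 0, 1 and 2 counts with NIBR-LTSi. Of its 50-base windows 51.7% occur in other genes, all of them in the pseudogene Hsp25-ps1, so this row may not give the level of the gene.

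Both HSP90 genes and all 5 co-chaperones rose. Their summed level went from 2191 ± 10 CPM (SD, n = 3) to 2577 ± 48 CPM, and no library of 1 group reached the other. Hsp90ab1 (Entrez 15516; chromosome 17, 45567778 to 45573261), the constitutive HSP90 and the member with the highest level per kb, was at 1462, 1438 and 1467 CPM with DMSO and at 1742, 1721 and 1671 CPM with NIBR-LTSi. The groups were clearly apart (log2 fold change 0.23 ± 0.03, 1.18-fold, adjusted p = 1.10e-04). Hsp90aa1 (Entrez 15519; chromosome 12, 110691036 to 110696395), the inducible HSP90, was at 123, 124 and 127 CPM with DMSO and at 175, 164 and 160 CPM with NIBR-LTSi. It rose more, by 0.42 ± 0.04 on the log2 scale (1.34-fold, adjusted p = 1.21e-05).

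The ratio of Hsp90aa1 to Hsp90ab1 counts was 0.0839, 0.0865 and 0.0864 with DMSO and 0.1005, 0.0955 and 0.0959 with NIBR-LTSi. It was higher in each treated library, a log2 difference of 0.18 (exact two-sided permutation p = 0.1, the smallest that 3 against 3 libraries allow). This pair was picked after its values were seen, and 58.5% of the 50-base windows of Hsp90aa1 occur in other genes.

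Of the co-chaperones, Chordc1 (Entrez 66917; chromosome 9, 18292267 to 18314000), a zinc-binding HSP90 partner, was at 39.6, 37.6 and 38.3 CPM with DMSO and at 51.0, 50.1 and 53.1 CPM with NIBR-LTSi. Its log2 fold change of 0.42 ± 0.05 (adjusted p = 4.38e-05) was close to that of Hsp90aa1. Ptges3 (Entrez 56351; chromosome 10, 128058982 to 128077254), which stabilises the closed form of HSP90, was at 47.9, 51.6 and 49.6 CPM and then at 59.5, 62.5 and 61.5 CPM. The log2 fold change was 0.30 ± 0.05 (adjusted p = 3.88e-04).

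The rest of the group rose by less. Stip1, the adaptor that joins HSP70 to HSP90, went from 106 ± 2 to 122 ± 1 CPM (adjusted p = 9.90e-04), and Ahsa1, which speeds the HSP90 ATPase, from 61.5 ± 1.0 to 70.7 ± 0.6 CPM (adjusted p = 0.00255). Fkbp4 (Entrez 14228; chromosome 6, 128430103 to 128438656), the immunophilin of steroid receptor complexes, was at 361, 359 and 345 CPM with DMSO and at 398, 399 and 384 CPM with NIBR-LTSi. It had the smallest rise of the group, 0.15 ± 0.04 on the log2 scale (adjusted p = 0.00530; 0.0611 without NIBR-LTSi replicate 2).

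**Figure D2:**
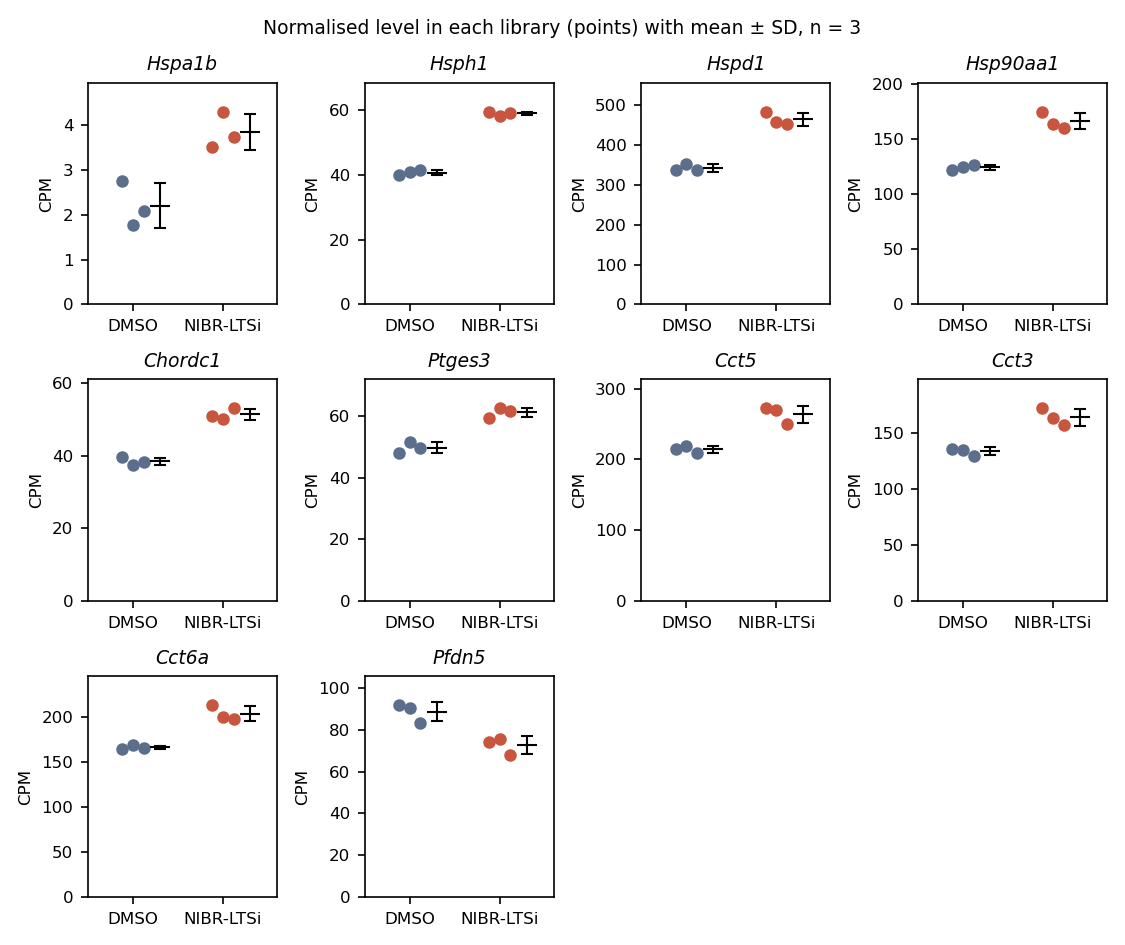
Normalised level (y axis, CPM, from 0) of the 10 called members with the largest changes, in the 3 DMSO libraries (blue) and the 3 NIBR-LTSi libraries (red), with mean ± SD beside them. In each panel the groups do not overlap; Pfdn5 is the only 1 of the 10 that is lower with NIBR-LTSi.

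Of the 4 mitochondrial chaperones 3 rose, and their sum went from 1123 ± 33 to 1352 ± 44 CPM (SD, n = 3) with no overlap. Hspd1 (Entrez 15510; chromosome 1, 55077833 to 55088243), the barrel of the mitochondrial chaperonin, was at 336, 352 and 337 CPM with DMSO and at 482, 457 and 451 CPM with NIBR-LTSi. The gap between the groups exceeded the range within either (log2 fold change 0.44 ± 0.04, 1.36-fold, adjusted p = 2.98e-06). Hspe1 (Entrez 15528; chromosome 1, 55088148 to 55091317), its lid, starts from the other side of the interval printed above and was at 73.2, 80.8 and 69.8 CPM with DMSO and at 86.7, 88.2 and 80.7 CPM with NIBR-LTSi. Its highest DMSO library reached its lowest NIBR-LTSi library, and the rise was smaller (log2 fold change 0.19 ± 0.06, adjusted p = 0.0201). The Hspe1 call was lost if any 1 of 4 libraries was left out (either of DMSO replicates 1 and 3, either of NIBR-LTSi replicates 1 and 2), with adjusted p up to 0.119.

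Within each library the ratio of Hspd1 to Hspe1 counts was 4.59, 4.36 and 4.83 with DMSO and 5.56, 5.18 and 5.59 with NIBR-LTSi. It was higher in every treated library, by 0.25 on the log2 scale (exact two-sided permutation p = 0.1, the smallest possible). This pair too was picked after its values were seen. About the same share of their 50-base windows occurs in other genes, 44.8% each.

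Hspa9, the mitochondrial HSP70 (chromosome 18, 34937414 to 34954351), had 585 ± 21 CPM in the DMSO group and 672 ± 25 CPM in the treated group, a rise of 0.20 ± 0.04 on the log2 scale (adjusted p = 0.00163). Trap1 (Entrez 68015; chromosome 16, 4039971 to 4077840), the mitochondrial HSP90, was at 124, 118 and 123 CPM with DMSO and at 130, 135 and 128 CPM with NIBR-LTSi. The groups did not overlap, but the log2 fold change of 0.11 ± 0.04 missed the threshold (adjusted p = 0.0551). It was called under 3 alternatives: scaling by library totals alone (0.0118), upper-quartile factors (0.0409) and a gene width offset (0.0187), over a range up to 0.2998.

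All 8 subunits of CCT rose, by 9.18% to 23.0%, and in each the libraries of the groups were apart. Their summed level went from 1589 ± 63 to 1862 ± 57 CPM (SD, n = 3). Cct5 (Entrez 12465; chromosome 15, 31590800 to 31601846) rose most: it was at 215, 220 and 209 CPM with DMSO and at 272, 270 and 250 CPM with NIBR-LTSi. The log2 fold change was 0.30 ± 0.04 (adjusted p = 1.44e-04). Cct3 (0.30 ± 0.04), Cct6a (0.29 ± 0.04) and Cct8 (0.27 ± 0.04) were within 1 SE of it.

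Cct2 (0.23 ± 0.05), Tcp1 (0.19 ± 0.05), the founding subunit of the ring, and Cct7 (0.17 ± 0.05) came next. Cct4 (Entrez 12464; chromosome 11, 22990593 to 23003336) rose least, from 219, 231 and 207 CPM with DMSO to 242, 240 and 235 CPM with NIBR-LTSi. Every treated library was above every DMSO library, and the log2 fold change was 0.13 ± 0.04 (adjusted p = 0.0355). The Cct4 call was lost in 8 of 16 alternatives, among them the removal of any library but DMSO replicate 2 (adjusted p up to 0.151). Cct7 lost its call without DMSO replicate 1, NIBR-LTSi replicate 1 or NIBR-LTSi replicate 2 (up to 0.0653) and Tcp1 without NIBR-LTSi replicate 2 (0.0738), while Cct2, Cct3, Cct5, Cct6a and Cct8 were called in all 16. Tcp1 overlaps Acat3 on the other strand, where 21.9% of its 50-base windows also occur, and Acat3 itself was not called.

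The subunits assemble in equal numbers, but their messages differed in level. Per kb of the gene width in the table, Cct2 was highest in all 6 libraries (108 ± 8 CPM per kb with DMSO and 127 ± 3 with NIBR-LTSi), followed by Cct5 (77.6 ± 1.9 and 95.4 ± 4.4) and Cct7 (59.2 ± 1.5 and 66.5 ± 3.9). Cct3 was lowest in all 6, at 28.4 ± 0.8 and 34.9 ± 1.6 CPM per kb. Between them Cct4, Cct8, Tcp1 and Cct6a lay at 45.8 to 52.2 CPM per kb with DMSO. They kept that order in each DMSO library, although the mean ± SD ranges of neighbours overlapped. With NIBR-LTSi Cct8 was the highest of these 4 in each library, and the order of the rest differed between libraries. The highest subunit was 3.55 to 4.01 times the lowest. How the widths were derived is not stated in the sources used here, so these levels may depend on which isoforms they cover and which were counted. For Cct3 the width was 4689 bases and the longest coding GENCODE transcript 1977. The same lengths were 3088 and 2394 for Cct8, and 2557 and 1959 for Cct2. The widths thus exceed these transcripts by unlike amounts. The order and the spread of the subunits hold for this width and need not hold per base of transcript.

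**Figure D3:**
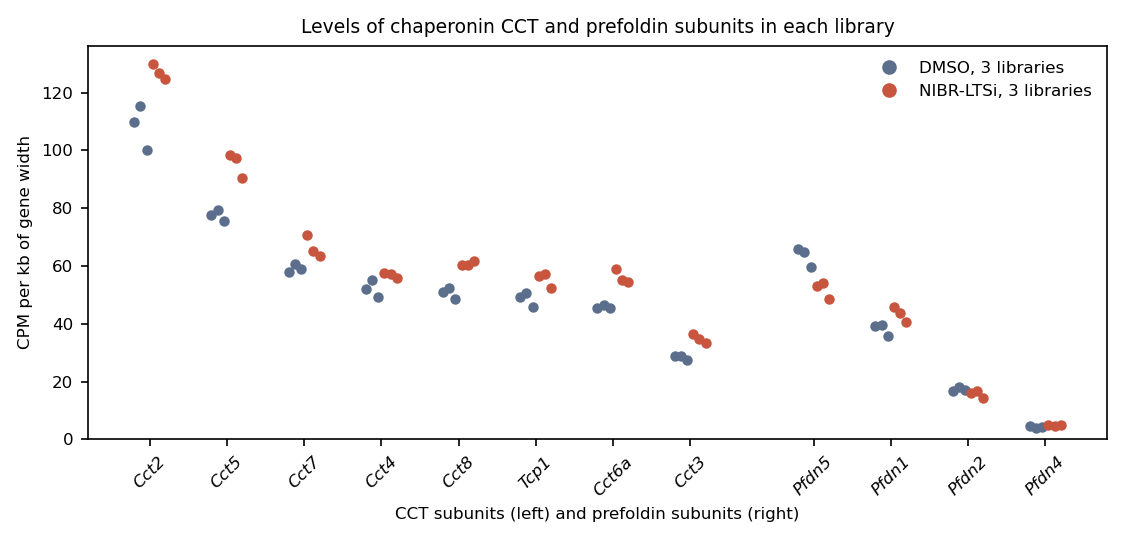
Level per length (y axis, CPM per kb of gene width, from 0) of the 8 CCT subunits on the left and the 4 prefoldin subunits on the right, 1 point per library, DMSO in blue and NIBR-LTSi in red. Each CCT subunit is higher in all 3 NIBR-LTSi libraries, while Pfdn5 is lower.

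The prefoldin subunits went both ways. Pfdn5 (Entrez 56612; chromosome 15, 102326116 to 102331490), an alpha-type subunit also known as a MYC-binding protein, was at 91.8, 90.5 and 83.3 CPM with DMSO and at 74.2, 75.6 and 67.9 CPM with NIBR-LTSi. All treated libraries were lower, with a log2 fold change of -0.29 ± 0.06 (adjusted p = 0.00130), the largest fall of the members and the only 1 of the 3 falls called in all 16 alternatives. Pfdn1 (chromosome 18, 36403679 to 36454495), a beta-type subunit, was at 43.7, 44.1 and 39.7 CPM with DMSO and at 50.9, 48.6 and 45.2 CPM with NIBR-LTSi. It rose by 0.18 ± 0.06 on the log2 scale (adjusted p = 0.0345), a call that 6 of 16 alternatives lost, 4 of them by leaving out a library (DMSO replicates 1 and 3, NIBR-LTSi replicates 1 and 2, adjusted p up to 0.133). The remaining beta-type subunits were not called: Pfdn2 was at 33.5 ± 1.3 and 30.5 ± 2.2 CPM (-0.14 ± 0.07 on the log2 scale, adjusted p = 0.117) and Pfdn4 at 10.7 ± 0.5 and 12.0 ± 0.5 CPM (0.16 ± 0.08, adjusted p = 0.157).

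The other 2 subunits of the prefoldin hexamer, Vbp1 and Pfdn6, belong to the wider list described next. Vbp1, the second alpha-type subunit, was at 24.0 and 28.2 CPM, a rise of 0.23 ± 0.06 on the log2 scale (adjusted p = 0.0100). Pfdn6 was at 29.2 and 28.0 CPM (adjusted p = 0.431). The 4 member subunits summed to 179, 180 and 167 CPM with DMSO and to 168, 168 and 154 CPM with NIBR-LTSi, which overlap. Per kb, the summed CCT level was 3.73 to 3.86 times the summed level of these 4 prefoldin subunits with DMSO and 4.65 to 4.93 times with NIBR-LTSi, so that the ratio was higher in all 3 treated libraries.

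A wider list of 62 further chaperones, co-chaperones and tubulin cofactors moved about as often as genes in general. Of 58 tested, 15 rose, 8 fell and 35 were not called, a share of 39.7% close to the background of 42.0%, and its median log2 fold change was 0.04. The 4 rises with the smallest p were Fkbp5, an HSP90-bound immunophilin (6.73 to 12.4 CPM, a log2 change of 0.88 ± 0.11, adjusted p = 5.16e-05), the vesicle J-domain protein Dnajc5 (0.30 ± 0.04), the HSP70 exchange factor Bag2 (0.72 ± 0.11) and the ribosome-bound J-domain protein Dnajc2 (0.35 ± 0.06). Among the falls with the smallest p were Bag1, another HSP70 exchange factor (220 to 190 CPM, a log2 change of -0.21 ± 0.04, adjusted p = 0.00187), Dnajb12 of the endoplasmic reticulum (-0.23 ± 0.05) and the myosin chaperone Unc45a (-0.28 ± 0.08). Together the list stood at 3146 to 3202 CPM with DMSO and 3177 to 3243 CPM with NIBR-LTSi. Of its 3 small heat-shock proteins, Hspb6 passed the filter and was not called (3.56 ± 0.53 and 4.45 ± 0.22 CPM, adjusted p = 0.0948), although its treated libraries were all higher. Hspb8 had at most 1 count in any library and Cryab 1 to 3 counts with DMSO and 6 to 16 with NIBR-LTSi, both below the filter. Serpinh1, the collagen chaperone, was at 0 in every library.

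Other genes moved with the groups as well. Per the labels the organoids were digested to single cells before RNA extraction, a step known to induce immediate-early and heat-shock genes. Of 12 genes of the dissociation response, 10 fell with NIBR-LTSi and none rose, and their summed level went from 3109 ± 82 to 1767 ± 104 CPM (SD, n = 3) without overlap. Fos fell by 0.84 ± 0.04 on the log2 scale, Jun by 0.91 ± 0.04, Egr1 by 1.19 ± 0.05 and Atf3 by 0.74 ± 0.09. Over the same libraries 23 of the 35 tested members rose, 3 fell and 9 were not called. The summed row of Hspa1a and Hspa1b rose, as did Hsph1 and Hsp90aa1. Dnajb1 was not called, and Bag3 fell, a call that 2 of 16 alternatives lost.

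In the proliferation list 17 of 18 genes rose and none fell, and their sum went from 705 ± 14 to 1132 ± 41 CPM. Pcna rose by 0.45 ± 0.04 on the log2 scale, while Mki67 was at 108 and 167 CPM (a log2 change of 0.63 ± 0.20, adjusted p = 0.0694). The part that the dissociation response, proliferation or cell composition has in the chaperone changes was not tested.

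**Figure D4:**
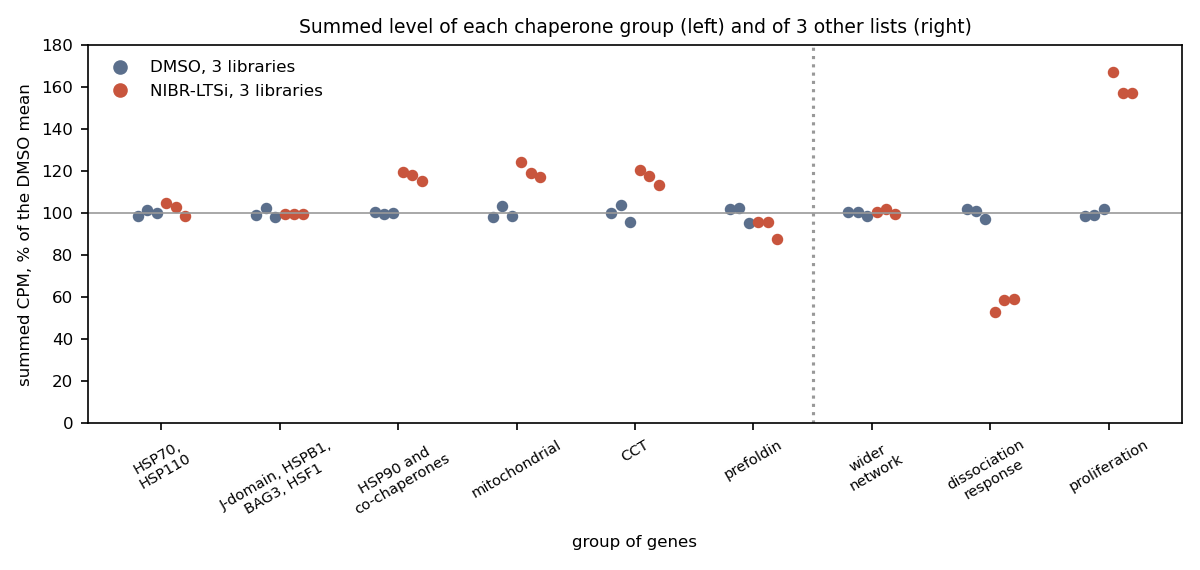
Summed CPM of each group of genes as a percentage of its DMSO mean (y axis, from 0), 1 point per library, DMSO in blue and NIBR-LTSi in red. Left of the dotted line are the 6 groups of members, of which HSP90, mitochondrial chaperones and CCT are higher in every NIBR-LTSi library. On the right the libraries of the wider chaperone list overlap, the dissociation list lower and the proliferation list higher.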

How the data were processed

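RNA sequencing libraries were made from 200 ng of total RNA with an Illumina stranded mRNA kit, per the labels' protocols. The authors deposited 1 table of raw read counts per gene for the 6 libraries, with a gene width (another column of the deposited table) in bases. Build mm10 and the tool edgeR (no version) are named by the submitters' processing notes. No source used here names an aligner, a counter or whether counting used strand, so reads of overlapping or near-identical genes cannot be assigned with certainty.

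Counts were filtered with filterByExpr and scaled with TMM factors. A quasi-likelihood F-test (edgeR 4.0.16 in R 4.3.3, robust, two-sided, group as the sole term, 4 residual degrees of freedom) was fitted over all 12592 genes that passed. P-values were adjusted over these genes by the Benjamini-Hochberg method (threshold 0.05). The SE of a log2 fold change is its absolute value divided by the square root of F. The coefficient of variation between replicates was 6.02%, and none of the 6 pairs of libraries within a group agreed within sampling noise (chi-square per degree of freedom 4.46 to 11.3). The fit was tested on simulated counts.

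The members, the lists and the rule for named genes were chosen with earlier results of these data known. The rule gives in full each called member with an absolute log2 fold change of at least 0.3, the highest and lowest of each role, Hspa1a, Hspa1b, Hspa8, both HSP90 genes and Hsf1. Of the wider list it takes the 4 smallest p in each direction, not all of which are reported here. Hspe1 and Dnajb1 were added after their values were seen, as were Vbp1 and Pfdn6 of the wider list. The 16 alternatives were DESeq2 (1.42.0), limma-voom (3.58.1), 3 other scalings, 2 other filters, Hspa1a and Hspa1b summed, a gene width offset, the replicate number as a block and each library left out in turn. Positions and promoters are from RefSeq (GRCm38.p6, the assembly of mm10), and transcripts and overlaps from GENCODE M21.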

Additional observations from a re-analysis of the deposited data

How the results depend on the processing

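Of the 23 members called higher, 15 stayed called in all alternatives run, as did 1 of the 3 called lower (Pfdn5), while 5 of the 9 uncalled genes (Hspa1a, Hspa8, Dnajb1, Pfdn2 and Pfdn4) stayed uncalled throughout. The number called higher was 20 to 26 under the other tools, scalings and filters, and 16 (without NIBR-LTSi replicate 2) to 21 with 1 library left out. The number called lower was 2 in each of those 6 fits. With scaling by library totals alone, 1 member was lower and the median log2 fold change of the members was 0.24. The median ranged from 0.15 (without DMSO replicate 3) to 0.22 with a library left out.

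The replicate number as a block gave 22 higher and 2 lower. Libraries of the same number did not all deviate together: their correlations were 0.05, -0.30 and 0.56. Libraries of unlike number gave values from -0.55 to 0.53, so the numbers were not read as pairs. Signs turned only among uncalled genes: with a library left out the log2 fold change of Hspa1a ran from -0.34 to 0.0132 (above 0 without NIBR-LTSi replicate 3) and that of Hspa8 from -0.0541 to 0.0049 (above 0 without the same library), and library totals put Hspa8 at 0.0231. Over the whole table, from 2206 to 3425 genes were called higher and 1922 to 2898 lower by other tools and settings, and 2201 to 2768 and 1934 to 2340 with a library left out. Counts of at most 18 for Hspa1a and 2 for Hspb1 limit what can be said of either. The causes of these shifts were not tested.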
